A study of Mus musculus with 2 samples.

Results

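The integrin and laminin subunits are the chains of a family of cell surface receptors and of a family of basement membrane proteins, and their RNA was followed in epiblast stem cells (EpiSC) of the mouse. Members were all genes whose name in the array design is that of an integrin alpha, integrin beta or laminin chain (Itga, Itgb, Lama, Lamb or Lamc with its number or letter), whatever their signal. The members reported here are 35 genes of 22753 on the array, read by 47 probes of 39429, and every count of subunits is over these. They are 26 integrin genes (18 alpha and 8 beta) and 9 laminin genes. Lamb1 carries the older name Lamb1-1 in the design and so fell outside the rule, but it is given below where the laminin trimers need it.

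EpiSC are pluripotent cells that correspond to the epiblast after implantation. Clones 1 and 2 were both wildtype, female, of C57BL/6 background and at passage 9, with 1 array each. The labels name no treatment, no other cell type and no separate cultures of a clone, and they do not state the culture medium or whether feeder cells were present. Cells were collected with trypsin, which cuts surface proteins, and the RNA was purified over Trizol and a column. Both clones therefore share genotype, sex, background, passage and collection, and each clone is a single line.

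An integrin is a receptor of 1 alpha and 1 beta chain that links the matrix outside the cell to the actin skeleton within, and the pair of chains sets which ligand is bound. A laminin is a secreted trimer of an alpha, a beta and a gamma chain and is a main component of basement membranes. In the early embryo, laminin in the basement membrane under the epiblast is bound by integrins that contain the beta chain encoded by Itgb1.

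Signals are given as log2 processed intensity relative to the 75th percentile of all probes on the same array, so that 0 is that percentile. It lay at a processed signal of 819 (clone 1) and 726 (clone 2). A probe was detected when the scanner software marked its spot as well above background, and the dimmest detected probe stood at -4.54 for clone 1 and -4.55 for clone 2. Differences are clone 2 minus clone 1. With 1 array per clone they have no replicate check and no test. The only error scale is the spread between spots of 1 array, which gives a difference an SD of 0.11 log2 in general and 0.17 for dim probes (signal under -2). It covers printing and scanning, not cultures. Brightness also depends on the probe, so the level of one gene is not set against that of another. The 12 EpiSC markers on the list used, among them Pou5f1 and Nanog, were all detected on both arrays.

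Most of the subunits reported were present in both clones, and few of them differed. Of the 35 genes, 25 (71.4%) were detected on both arrays, against 61.3% of all genes. Detection on 1 array alone applied to Itga1 (clone 1) and Itga2b (clone 2), and 4.9% of all genes were in that state. The other 8 (22.9%, against 33.8% of all genes) lacked the well-above-background flag in both clones: Itga2, Itgad, Itgae, Itgax, Itgb6, Itgb8, Lamb3 and Lamc3. By family, 18 of 26 integrin genes and 7 of 9 laminin genes were detected on both arrays.

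**Figure D1:**
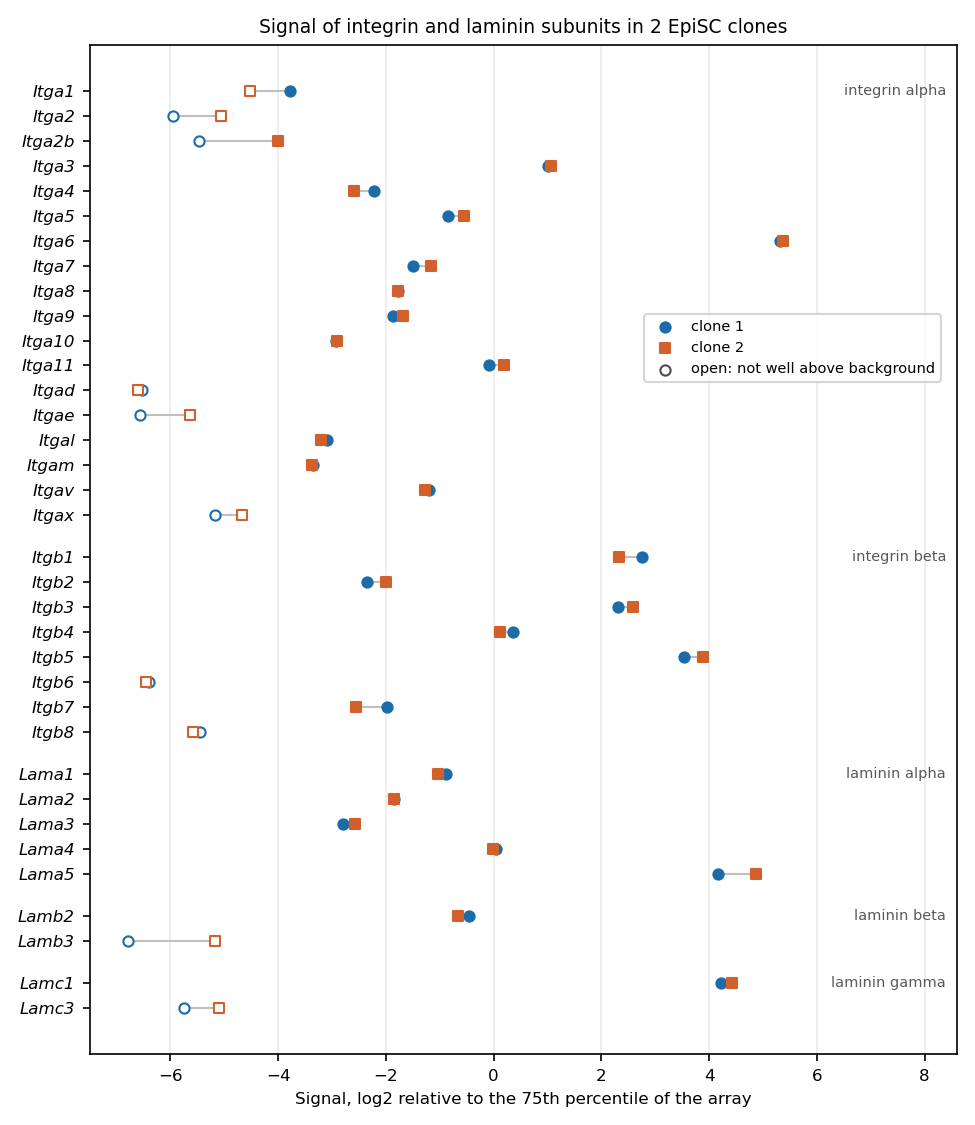
Signal of the 35 subunit genes (log2, with 0 at each array's 75th percentile, horizontal axis) in clone 1 (blue circles) and clone 2 (orange squares), 1 array each, with open symbols where the gene was not well above background. The 2 symbols of most genes nearly touch, and Lama5 shows the widest gap among genes with both symbols filled.

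The differences between clones were small for most of these genes. Over the 25 detected on both arrays they ran from -0.57 (Itgb7) to 0.71 (Lama5) with a median of 0.01. Lama5 was 1.63-fold higher in clone 2 and was the only one of the 25 at least 1.5-fold apart (4%), and 0 were 2-fold apart. Of the 13928 genes measured on both arrays, 9.08% were at least 1.5-fold apart, 5.76% with the higher signal in clone 2, and 2.56% were at least 2-fold apart. In 13 subunits the higher signal was in clone 2 and in 12 in clone 1. That split rests on the scaling, with 17 of 25 higher in clone 2 under another background correction, normexp, and 10 of 25 (median -0.06) when the percentile was taken over detected probes. Over all genes the median was 0.05, and 5th and 95th percentiles of -0.48 and 0.62 enclosed all of the 25 but Itgb7 and Lama5. Taken by probe, 3 of 31 detected on both arrays (9.68%) were at least 1.5-fold apart, namely that of Lama5 and one each of Itgb1 and Itgb3, against 9.57% of all probes.

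**Figure D2:**
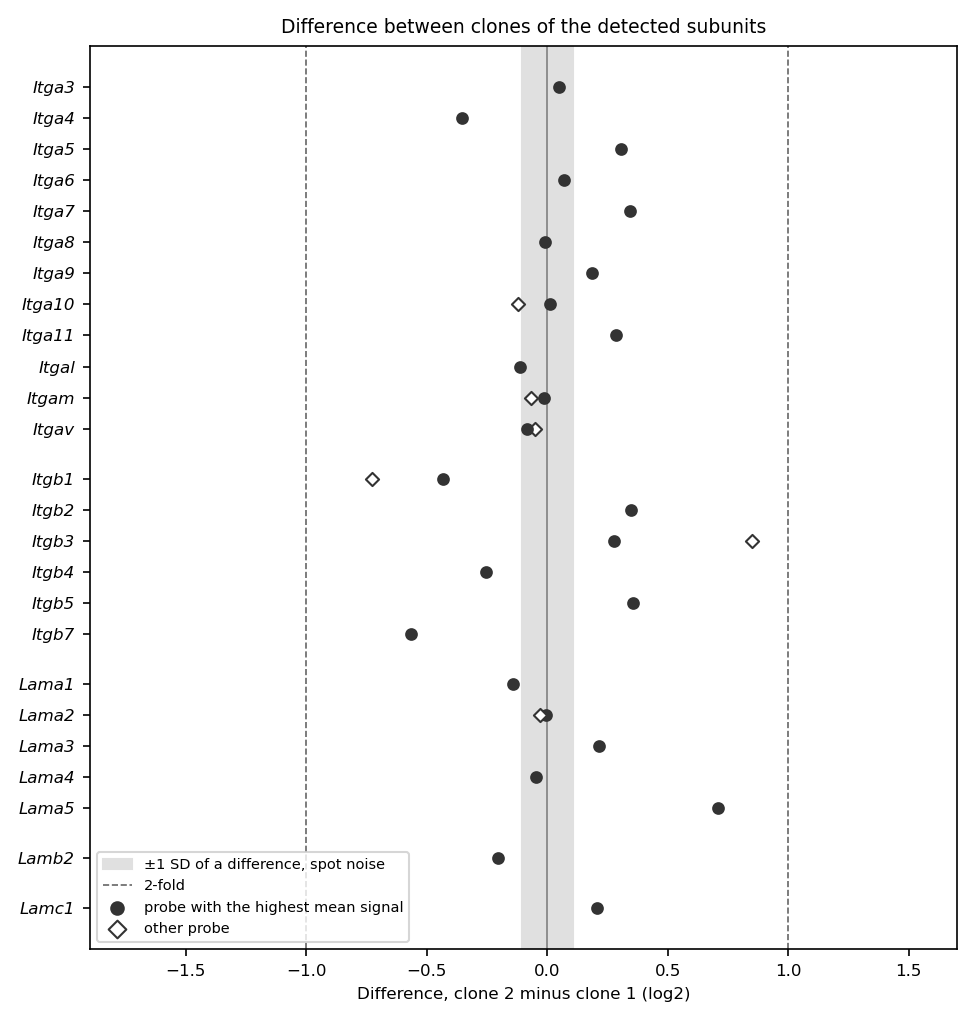
Difference between clones (clone 2 minus clone 1, log2, horizontal axis) for the 25 subunits detected on both arrays, with filled circles for the probe of highest mean signal and open diamonds for other detected probes. The grey band is 1 SD of a difference from spot noise (0.11), the dashed lines mark 2-fold, and the points lie between -0.73 (a probe of Itgb1) and 0.85 (a probe of Itgb3).

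Lama5 encodes the alpha chain of the laminin that is produced by epiblast-like cells in culture and supports their adhesion. Its probe read 14695 in clone 1 and 21271 in clone 2, or 4.17 and 4.87, and was 1.63-fold higher in clone 2 (0.71 log2). No neighbouring spot differed 2-fold in that direction. It lies at mm9 chr2:179911079-179911138, minus strand, and its first 30 bases are shown to identify the probe.
Lama5 probe: tttgttcctcctgcccaacaactgtcagta

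The other laminin alpha chains differed less between the clones. Lama3, an alpha chain of stratified epithelia, read -2.79 in clone 1 and -2.58 in clone 2 by its detected probe, a difference of 0.21, while its other probe stayed below the detection limit in both clones. Lama1, the alpha chain of the first embryonic basement membranes, read -0.89 and -1.03 (difference -0.14). Lama4, of vessel and fat tissue laminins, read 0.04 and -0.01. Lama2, the alpha chain of muscle laminin, read -1.85 on both arrays by one probe and -2.86 and -2.89 by the other. Of the 5 alpha genes, 2 were higher in clone 2 and 3 in clone 1, and all 5 were detected on both arrays.

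Lamb2, a beta chain of the neuromuscular and kidney basement membranes, was at -0.45 in clone 1 and -0.65 in clone 2 (difference -0.20). Lamb3, of stratified epithelia, was at -6.79 and -5.18, below the detection limit in both clones. Lamb1, the beta chain of most embryonic laminins and not a member by its design name, read 4.59 and 5.00 (difference 0.42, 1.34-fold higher in clone 2). Among the gamma chains, Lamc1, the one of most laminins, read 15173 and 15516 as processed signals, or 4.21 and 4.42, a difference of 0.21. Lamc3 stayed below the detection limit in both clones (-5.74 and -5.09). Lama5, Lamb1 and Lamc1 were thus all higher in clone 2, by 0.71, 0.42 and 0.21, while Lamb2 was higher in clone 1. Of the 7 laminin members detected on both arrays, 3 were higher in clone 2 and 4 in clone 1. Over all genes 56.9% were higher in clone 2. For Lamc1 the size rests on the scaling, with 0.10 after quantile normalization and 0.081 in the authors' deposited table, within the spot noise of 0.11. Lamb1 differed by 0.29 under both.

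Of 13 laminin trimers counted, 10 had all of their chains detected, in each clone. The 3 incomplete ones lacked Lamc3 in both clones. With detection above the negative controls the counts were 10 in clone 1 and 13 in clone 2, and with the positive-and-significant flag 13 in each, so the gap at Lamc3 depends on the detection rule. These counts describe RNA and not assembled protein.

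Extraembryonic endoderm and fibroblasts also make laminin. Of 10 extraembryonic endoderm markers, 4 were detected on both arrays and Gata6 in clone 2 only, while Gata4, Sox17, Afp, Ttr and Hnf4a were on neither. Their summed signal, in multiples of the 75th percentile, was 1.78 in clone 1 and 2.13 in clone 2. Here and below, such sums take the brightest probe of each marker where it was detected on that array. All 14 fibroblast markers were detected on both arrays, with Col1a2 at 4.88 and 5.01 and Dcn at 3.79 and 3.62, and their summed signal was 130 and 146. The share of each subunit's signal that came from such cells was not tested. In bulk RNA, fewer cells of a type and less RNA per cell cannot be told apart.

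Turning to the receptors, the 3 alpha chains counted here as laminin-binding, Itga3, Itga6 and Itga7, were detected in both clones with differences of at most 0.34. Itga6, whose chain pairs with that of Itgb1 or Itgb4, read 32403 and 30149 as processed signals, or 5.31 and 5.38. The sign of its difference of 0.07 rests on the scaling, since quantile normalization gave -0.09. Itga3, which binds Lama5-containing laminin, read 1.01 and 1.06. Itga7, the laminin receptor of muscle, read -1.50 and -1.16 (difference 0.34).

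Itgb1, the beta chain shared by 12 of the 24 known integrins, was higher in clone 1 on both probes. The probe at base 2631 of the transcript read 5518 in clone 1 and 3621 in clone 2, or 2.75 and 2.32, a difference of -0.43. The probe at base 1840 read 1920 and 1029, or 1.23 and 0.50, a difference of -0.73, which is 1.65-fold higher in clone 1. Both differences exceed the 0.11 SD of spot noise, and their average of -0.58 keeps the gene under 2-fold. The probes lie on mm9 chr8:131246349-131246408 and chr8:131250081-131255976, plus strand, the latter split by an intron. Their first 30 bases are shown because these separate stretches of 1 transcript differ in the same direction.
Itgb1 probe at base 1840: tggacgcttactgcaggaaagagaacagtt
Itgb1 probe at base 2631: gacacgggtgaaaatcctatttacaagagt
Itgb4, the beta chain of hemidesmosomes, read 0.37 and 0.11 (difference -0.26). Of the 4 spots printed next to it, 3 were at least 2-fold lower in clone 2, with a median of -2.32 over the 4, and their part in the difference was not tested. Hemidesmosomes are best known from basal keratinocytes, and 2 of 5 markers of those cells were detected on both arrays: the transcription factor Trp63, at 0.56 and 1.18, and the linker Dst, at -0.14 and -0.09. Krt5 (-4.32 and -3.23) and Col17a1 (-6.42 and -4.33) were detected in clone 2 only and Krt14 (-4.07 and -4.48) in clone 1 only. The summed signal of the 5 markers, in multiples of the 75th percentile, was 2.44 in clone 1 and 3.36 in clone 2. Most of each sum is Trp63, which differed by 0.63 on the probe used and by -0.11 on its other probe. The gap between the sums thus depends on the probe. The part of such cells in the signal of Itgb4 was not tested.

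The collagen-binding alpha chains were detected in part. Itga11, the collagen receptor of fibroblasts, read -0.09 and 0.20 (difference 0.28), while all 14 fibroblast markers had a median difference of 0.14. Itga10, of cartilage, read -2.93 and -2.92 by one probe and -3.19 and -3.31 by another that shares 54 of its 60 bases. Those overlapping probes gave differences of 0.01 and -0.12, a gap within the noise of dim spots. Itga1 was detected in clone 1 only, at -3.77 against -4.52, and the bound on its difference is at least 1.68-fold higher in clone 1. That direction is not firm, since normexp gave the same probe a difference of 0.33, higher in clone 2. Its other probe, nearer the start of the transcript, read -6.48 and -6.50 and was on neither array above background. Normexp gave that undetected probe a difference of 1.16, against -0.01, so it moved probes without detected signal toward clone 2 as well. Itga2, which lies 130 kb from Itga1 on chromosome 13, was not well above background (-5.95 and -5.06).

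Among alpha chains of receptors for fibronectin and vitronectin, Itga5, the main fibronectin receptor, read -0.85 and -0.54 (difference 0.31). Itga8, of kidney mesenchyme, was at -1.78 on both arrays. Itgav, which pairs with several beta chains, read -1.19 and -1.28 by one probe and -1.93 and -1.98 by the other. Its differences of -0.09 and -0.05 are within spot noise. Itga4 and Itga9, related chains that bind Vcam1 and other ligands, differed by -0.36 (-2.23 and -2.58) and 0.19 (-1.86 and -1.68). The direction for Itga4 turned with normexp, which gave 0.05. A second Itga4 probe, 7462 bases nearer the start of the transcript, was not well above background (-6.69 and -6.58).

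The beta partners of Itgav were split into a detected and an undetected pair. Itgb5, a vitronectin receptor chain, read 9500 and 10790 as processed signals, or 3.54 and 3.89 (difference 0.36, and 0.16 with normexp). Itgb3 read 2.31 and 2.59 by its brighter probe, a difference of 0.28, which normexp reduced to 0.07. Itgb6, of epithelia, and Itgb8, which with the chain of Itgav releases active TGF-beta, were not well above background. The probes of Itgb6 read -6.60 and -6.66, and -6.40 and -6.45, and the probe of Itgb8 -5.45 and -5.58. With the positive-and-significant flag Itgb8 was detected on both arrays and Itgb6 on neither.

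Itgb3 is the member whose probes disagreed most. The probe at base 2618 of the transcript read 82.8 in clone 1 and 132 in clone 2, or -3.31 and -2.46, and the one at base 5665 read 4067 and 4373. The later probe was 49.1-fold brighter in clone 1 and 33.1-fold in clone 2. The earlier probe differed between clones by 0.85 log2 (1.80-fold) and the later by 0.28, both higher in clone 2, so the size of the difference depends on which stretch of the transcript is read. The probes lie at mm9 chr11:104528625-104528684 and chr11:104531672-104531731, plus strand, and their first 30 bases are shown because they read 1 gene so differently.
Itgb3 probe at base 2618: acttatgtgtgtgacgagtgtggggaaatg
Itgb3 probe at base 5665: ccacagcaacatcagagtctttgtccattt
Such gaps are common on this array, since of 3493 genes with 2 or more probes detected on both arrays 28.6% had probes at least 10-fold apart. Among the subunits this was 1 of 6 genes.

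Itga2b, the platelet partner of Itgb3, lies 2.21 Mb from it on chromosome 11. It was detected in clone 2 only, at -5.48 against -4.01, or 18.4 and 45.2 as processed signals. Its bound is at least 1.45-fold higher in clone 2. One of the 4 adjacent spots was also at least 2-fold higher in clone 2. Of 7 platelet and megakaryocyte markers, Gp1bb (-4.07 and -4.17) and Pf4 (0.18 and 0.33) were detected on both arrays, and Gp1ba, Gp9, Gp6, Ppbp and Gata1 on neither. The summed signal of the 7 was 1.19 in clone 1 and 1.31 in clone 2, and the part of such cells in the signal of Itga2b was not tested.

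The integrins named for leukocytes were also detected in part. Of their 7 genes, 4 were detected on both arrays: Itgal, Itgam, Itgb2 and Itgb7. Itgb2, the beta chain of leukocyte integrins, read -2.34 and -2.00 (difference 0.35). Itgal, its partner on lymphocytes, read -3.09 and -3.20 by one probe, and -5.09 and -5.83 by another that was on neither array above background. Itgb7, of gut-homing lymphocytes, had the lowest of the 25 differences, -0.57 (-1.99 and -2.55, or 1.48-fold higher in clone 1). With normexp that difference shrank to -0.11. Itgad (-6.53 and -6.60) and Itgax (-5.17 and -4.66), further partners of Itgb2, and Itgae (-6.56 and -5.63), the partner of Itgb7, were not well above background.

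Leukocyte markers were measured beside these genes. Of 12 markers, 10 were detected on both arrays, with Ptprc in clone 1 only (-3.93 and -4.58) and Cd68 in clone 2 only (-4.64 and -4.11). Cd3e, of T cells, was the only one of these 10 at least 2-fold apart, at -2.14 and 0.31 (5.46-fold higher in clone 2). The summed signal of the 12 markers was 5.83 in clone 1 and 7.42 in clone 2. After Cd3e, Csf1r had the largest difference, 0.83 on the probe used, but its other probes differed by -0.01 and 0.09. The gap between the sums thus rests largely on these genes. The part of leukocyte RNA in the signal of Itgb2, Itgal, Itgam and Itgb7 was not tested. Of 7 endothelial markers, Pecam1 and Kdr were detected on both arrays and Cdh5, Tek, Tie1, Emcn and Cldn5 on neither, with summed signals of 2.18 and 3.74. Most of each sum is Kdr, which differed by 0.78 on the probe used and by 0.15 on its other probe.

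Itgam, the alpha chain of the macrophage receptor for complement, has 3 probes that gave different pictures. The probes at bases 270 and 3410 of the transcript read 48.0 and 40.6, and 79.7 and 70.0, as processed signals in clones 1 and 2, or -4.09 and -4.16, and -3.36 and -3.38. The probe at base 4431 read 1746 and 1841 (1.09 and 1.34), but its spot on the array of clone 2 carried an outlier flag, so it did not enter the value of the gene. The probes lie on mm9 at chr7:135212140-135212199, chr7:135260275-135260334 and chr7:135261755-135261814, plus strand. Their first 30 bases are shown, with capitals on the run of CA repeats that only the probe at base 4431 holds.
Itgam probe at base 270: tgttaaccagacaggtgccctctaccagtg
Itgam probe at base 3410: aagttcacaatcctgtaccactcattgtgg
Itgam probe at base 4431: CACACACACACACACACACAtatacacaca
The letters CACACACACACA were searched for on both strands of all probes, and 157 (0.398%) hold them. Of the 154 with a value, 95.5% were detected on both arrays, against 54.7% of all probes. On the probe strand alone, as in Itgam, 86.5% of 52 were detected on both arrays.

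**Figure D3:**
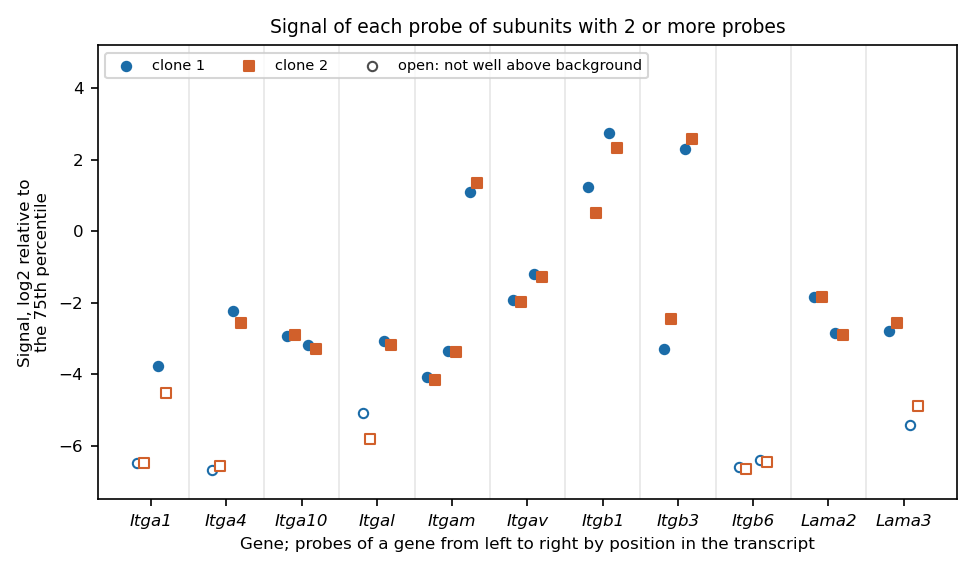
Signal (log2, with 0 at each array's 75th percentile, vertical axis) of each probe of the 11 subunit genes with 2 or more probes, ordered by position in the transcript, in both clones, with open symbols where a probe was not well above background. The probes of Itgb3 lie over 5 log2 units apart on the array of clone 1, and the third Itgam probe, whose clone 2 spot carried an outlier flag, lies far above the others of that gene.

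Among the 11 subunits with several probes, the probes often disagreed on detection. In Itga1, Itga4, Itgal and Lama3 one probe was detected and another was not on at least 1 array, and 27.9% of 6042 genes with several probes did the same. In 7 of the 10 genes with a detected probe the highest signal was that of the probe nearest the end of the transcript. The same was not counted over all genes with several probes, so it cannot be called a trait of the subunits. Among the 6 genes with 2 or more probes detected on both arrays, Itga10 was the only one whose probes differed in opposite directions. Apart from Itgb1 and Itgb3, the widest gap between the differences of probes within these 6 genes was 0.13 (Itga10). Probes not detected on both arrays and the flagged Itgam probe are left out of that gap.

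The chains were then counted as pairs. Of 24 known heterodimers, 17 had both chains detected in clone 1 and 17 in clone 2. The equal counts depend on the detection rule, with 15 and 20 when detection meant a signal above the negative controls and 21 and 22 with the flag for a positive and significant signal. By the well-above-background flag the sets differed by 1 pair each way, Itga1 with Itgb1 in clone 1 and Itga2b with Itgb3 in clone 2, and both rest on an alpha gene near the detection limit. The laminin receptors Itga3, Itga6 and Itga7 with Itgb1, and Itga6 with Itgb4, were complete in both clones, as were Itgav with Itgb1, Itgb3 and Itgb5. Missing in both clones by the well-above-background flag were the pairs that need Itga2, Itgax, Itgad, Itgae, Itgb6 or Itgb8. With the flag for a positive and significant signal, Itga2, Itgax and Itgb8 were detected on both arrays, so these gaps depend on the detection rule.

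Genes that work with these chains were counted from lists. Of 30 integrin adaptors, which link the beta chain to actin and signalling, 26 were detected on both arrays and none was 2-fold apart (2.56% of all genes). The actin crosslinkers Flna (5.97 and 6.16) and Actn4 (4.50 and 4.63) and the integrin activator Tln1 (4.43 and 4.61) were detected on both arrays. Of these 26, 20 (76.9%) were higher in clone 2, with a median of 0.18, against 56.9% and 0.05 over all genes, but with normexp 16 were (61.5%, with a median of 0.071), against 62.3% and 0.10 over all genes. The excess over all genes was thus absent under that correction. The median came to 0.070 with quantile normalization and 0.072 from the authors' deposited table, against 0.012 and 0.0075 over all genes. In both, 18 of the 26 (69.2%) were higher in clone 2, against 51.8% and 51.2% of all genes. The excess over all genes thus remained under those settings. Of the kindlins, which act with talin on the beta tail, Fermt2 was detected (1.24 and 1.25), while Fermt1 and Fermt3 were not well above background, nor were Parvg and Rap1a.

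Of 15 basement membrane partners of laminin, 11 were detected on both arrays and none was 2-fold apart, with 8 higher in clone 2 and a median of 0.11. That median was 0.064 in the authors' deposited table (7 of 11 higher) and 0.031 with the percentile taken over detected probes. The median of all genes moved as well, from 0.05 to 0.0075 (deposited table) and -0.03 (detected probes). Sparc read 6.65 and 6.76, the heparan sulfate proteoglycan Agrn 4.91 and 5.17, and the collagen gene Col18a1 4.07 and 4.45. A second Col18a1 probe differed by 1.27, so the gene's difference depends on the probe. Col4a3, Col4a4 and Ntn4 were not well above background, and Smoc1 was detected in clone 1 only. All 10 laminin receptors outside the integrins and integrin-linked tetraspanins were detected on both arrays, and none was 2-fold apart. Of these 10, 8 (80%) were higher in clone 2, against 56.9% of all genes. The median of the 10 was 0.20, and 0.11 with normexp, where that of all genes was 0.10. Rpsa, a ribosomal protein that also binds laminin, read 7.42 and 7.40, and the tetraspanins Cd81 and Cd151 5.67 and 6.01, and 3.74 and 3.90.

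Of 21 other integrin ligands, 14 were detected on both arrays, with 11 higher in clone 2 (9 in the authors' deposited table) and a median of 0.20. Ccn2, a matrix-associated ligand listed as Ctgf in the design, was the only gene of the 4 lists at least 2-fold apart, and 1.51% of all genes were as far apart with the higher signal in clone 2. It read 3.30 in clone 1 and 4.99 in clone 2, 3.22-fold higher in clone 2. Fibronectin, Fn1, read 5.91 and 6.10, and Mfge8, a ligand of Itgav integrins, 5.68 and 6.27. Vitronectin, Vtn, was not well above background, while both clones held the RNA of its receptor chains Itgav, Itgb3 and Itgb5. The fibrinogen genes Fga, Fgb and Fgg were likewise not well above background, and Icam1, Icam2 and Npnt were detected in clone 2 only.

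**Figure D4:**
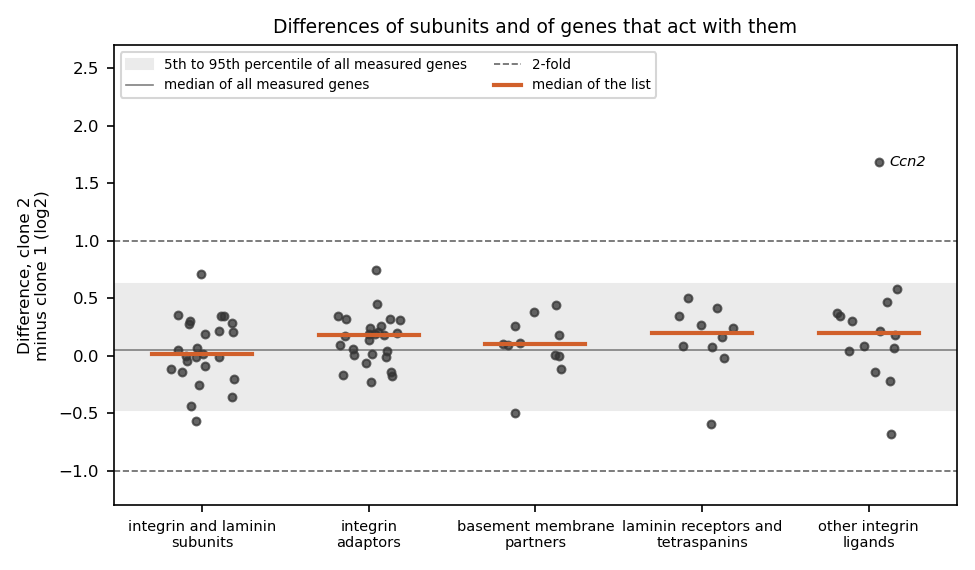
Difference between clones (clone 2 minus clone 1, log2) of each gene detected on both arrays, for the 25 subunits and the 4 lists of genes that work with them, with orange bars at the median of each group, a grey band from the 5th to the 95th percentile of all genes and a thin line at their median. The group medians run from 0.01 for the subunits to 0.20, and Ccn2 (1.69) is the point beyond 2-fold.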

How the data were processed

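RNA of 2 EpiSC clones, 1 array each, was read on 1-colour Agilent arrays of the same slide and scan. Per the file headers, Feature Extraction 11.0.1.1 made the deposited processed signal intensity with spatial and multiplicative detrending and without local background subtraction. It was not normalized between arrays. Detection flags (other values, 0 or 1) are also as deposited. The authors' deposited table of normalized intensity served as an alternative, its method being not given in the sources used here. Of its 39429 entries, 52 with repeated identifiers were left out.

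Spots with outlier flags (277 and 246 per array) were removed, spots of a probe averaged on the log2 scale, and the 75th percentile of each array subtracted. Every member probe has 1 spot. Detection of a probe needed the well-above-background flag on 50% or more of its spots, and 157 probes without a value were left out. The brightest probe by mean signal gave the value of a gene, which was detected if any probe was. Called means at least 2-fold apart and detected on both arrays. For a gene detected on 1 array, the bound compares its detected value with its own value on the other array or that array's lowest detected signal, whichever is higher. No member spot was saturated, and precision is limited by the number of arrays. Spot noise was taken from probes printed 10 times.

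Names came from RefSeq (GRCm38.p6), used for names only, and 44 of 47 member accessions matched. Positions are mm9, per the file headers, and probe sequences are those deposited with the arrays. Protein sequences were not used here. A gene that the rule for members takes, and some list genes, are not reported here, and counts of subunits, trimers and markers leave them out. The members counted are all named. Of 4 lists (76 genes: integrin adaptors, basement membrane partners, laminin receptors with tetraspanins, other integrin ligands), genes are named when 2-fold apart, among the 3 with the brightest probes, or as examples, some chosen after their values were seen. The 7 marker lists hold 67 genes. Members and lists were chosen with earlier results of these data known. Counting was tested on simulated data. Python 3.11.15, pandas 2.3.3, R 4.3.3 and limma 3.58.1 were used. Alternatives were normexp (offset 50), quantile normalization, the deposited table, other percentiles, probes, flags and folds.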

Additional observations from a re-analysis of the deposited data

How the results depend on the processing

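No paired analysis was possible because each clone has 1 array. Lama5 has 1 probe with 1 spot, so settings that changed only probes, flags or folds could not move its difference. Under those that changed the scaling or the background correction, Lama5 stayed higher in clone 2, from 0.59 to 0.71 log2. No second probe checks this value. The median difference of the subunits was 0.16 with normexp, where that of all genes was 0.10, against 0.01 in the main setting. With the percentile taken over detected probes it was -0.06, where that of all genes was -0.03. The median of the integrin adaptors was 0.071 with normexp, 0.070 with quantile normalization and 0.072 from the authors' deposited table, against 0.18. Over all genes it was 0.10, 0.012 and 0.0075 under these settings, against 0.05. With the positive-and-significant flag, which added Itga2b, 1 of 31 subunits was at least 2-fold apart, against 5.37% of all genes. At 1.5-fold 1 of 25 was counted (Lama5), against 9.08% of all genes. In the main setting 0 of those reported were 2-fold apart, against 2.56% of all genes. The positive-and-significant flag detected 31 of 35 subunits on both arrays, against 80.0% of all genes. A limit at the negative controls detected 24 of 35, against 54.0% of all genes. Normexp moved 16 of 25 gene differences beyond spot noise, quantile normalization 3 and the deposited values 5. With normexp, the member probes detected on neither array were all higher in clone 2, from 0.58 (Itgal) to 1.16 (Itga1). In the main setting those probes ran from -0.73 (Itgal) to 1.61 (Lamb3). Normexp thus also changed the differences of probes without detected signal. The cause was not tested. Keeping outlier spots gave Itgam the value of its CA repeat probe, with a difference of 0.25. Low signal limits Itga1 and Itga2b, which lie near the detection limit, and Itgam, which the negative control limit removed from the genes detected on both arrays.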
